A study of Homo sapiens with 8 samples.

Results

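The genes described here encode the subunits of the human proteasome, its activators and its inhibitor, and the chaperones that assemble it. They were chosen by symbol: protein-coding genes named PSMA to PSMG followed by a number. The rule found 48 genes among 19885 protein-coding genes and 60651 genes in all. Of these, 19 belong to the 20S core (8 PSMA and 11 PSMB), 20 carry symbols of the 19S regulatory particle (6 PSMC and 14 PSMD), 5 encode activators and the inhibitor (4 PSME and PSMF1) and 4 encode core assembly chaperones (PSMG). Ribosome footprints, the mRNA fragments that a ribosome shields from RNase I, were sequenced from IMR32 cells, a human neuroblastoma line with amplified MYCN that the labels call wild type. In 4 libraries the cells had received CR31B, a silvestrol analogue of the rocaglate class that acts on the RNA helicase eIF4A, and in 4 libraries they had received DMSO (0.1%), the solvent. Both groups were kept for 6 h, were then given cycloheximide, which stalls elongating ribosomes, and were from the same line. The dose of CR31B is not given in the sources used here. The values are TPM, which correct for transcript length and have the same sum in each library. Levels of different genes are set side by side as listed, with a limit. The coding part, where elongating ribosomes sit, is 615 of 773 bases for PSMB3 but 783 of 4411 for PSMA4 in annotated transcripts. Rankings between genes were not corrected for this. TPM carry no read depth, so the counting error behind each value is unknown and the error given is the spread between libraries. Because the sums are equal, a change in the total amount of footprints cannot be seen. Fell, rose, lower and higher therefore mean relative to all other footprints of a library.

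The proteasome is the main protease of the cytosol and nucleus and degrades proteins tagged with ubiquitin. Its 20S core is a barrel in which outer alpha rings (PSMA genes) gate access to inner beta rings (PSMB genes), and 3 beta subunits, PSMB5, PSMB6 and PSMB7, cut the substrate. The 19S particle binds the ubiquitin tag, removes it and feeds the unfolded chain into the core with a ring of ATPases (PSMC genes), while the PSMD genes supply most of its receptors, scaffold and lid. PSME proteins cap the core in place of the 19S particle, PSMF1 was first known as an inhibitor of the core, and the PSMG proteins guide the assembly of the alpha ring. Cancer cells, with their high protein turnover, are known to depend on proteasome activity.

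Proteasome footprints made up 0.609 ± 0.0262% of all TPM in DMSO and 0.541 ± 0.0550% in CR31B (SD, n = 4 each). The protein-coding share of TPM was 61.3% in CR31B replicate 1, 51.8% to 52.3% in the other CR31B libraries and 52.0% to 58.4% in DMSO. Libraries of the same group correlated at 0.963 to 0.987 over the tested genes (Pearson's r of log2(TPM + 1)), and libraries of different groups at 0.946 to 0.975. Of 10 markers of adrenergic neuroblastoma cells, 9 had a mean of at least 1 TPM, and their sum lay between 1281 and 1859 TPM in CR31B and between 1198 and 1429 TPM in DMSO. These markers did not move together: the DMSO and CR31B means were 593 and 891 TPM for MYCN and 181 and 271 TPM for HAND2, but 36.7 and 28.0 TPM for PHOX2A, 53.7 and 39.9 TPM for DBH and 77.4 and 62.0 TPM for CHGA. Their part in the results below was not tested. Of 7 markers of mesenchymal cells, 3 reached that level (summed 44.6 to 56.9 TPM in CR31B and 39.0 to 61.4 TPM in DMSO, with PRRX1 listed at 0), and none of 4 glial or 5 leukocyte markers did, with SOX10 and CD3E listed at 0. In such bulk libraries, fewer cells with a given footprint and fewer footprints per cell cannot be told apart. A footprint level also mixes the amount of an mRNA with how densely ribosomes occupy it.

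Of the 48 genes, 43 had a mean of at least 1 TPM over the 8 libraries and were tested. The other 5 were listed at or near 0. PSMA8, a testis subunit that replaces PSMA7 during sperm development, was listed at 0 in all 8 libraries, as was PSMB11, the catalytic subunit of the thymus. PSMB8 and PSMB9, the interferon-induced catalytic subunits of the immunoproteasome, were also listed at 0 in every library. PSMB10, the third immunoproteasome subunit, was detected: it read 16.68, 15.08, 14.53 and 12.98 TPM in DMSO replicates 1 to 4 and 18.54, 15.92, 12.25 and 16.30 TPM in CR31B. The groups overlapped fully, and the log2 fold change was 0.07 (SE 0.14, 95% confidence interval, CI, -0.24 to 0.39). PSMB8 and PSMB9 lie side by side with the peptide transporter genes TAP1 and TAP2, which did not exceed 0.19 TPM, and HLA-B and HLA-C did not exceed 0.12 TPM. B2M, the light chain that pairs with HLA class I proteins, stood between 240.7 and 342.8 TPM, and BRD2, another gene of that region, between 18.9 and 34.9 TPM. PSMD5, a chaperone of the 19S base with a housekeeping role, was listed at 0.01 TPM in 1 DMSO library and at 0 in the other 7. A zero for such a broadly used gene can be a failed estimate, so these zeros are given as listed and not as absence.

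The comparison asked which proteasome genes had other footprint levels after CR31B. With limma on log2(TPM + 1) and Benjamini-Hochberg adjustment over all 11778 genes tested, 4 of the 43 tested genes fell (adjusted p under 0.05) and 0 rose. They were PSMA7 of the alpha ring, PSMD1 and PSMD11 of the 19S particle, and PSME3, a nuclear activator of the core. Over all genes tested, 7.46% passed in either direction and 4.02% passed as lower, beside 9.30% of the tested proteasome genes, all of them lower. The like share is that of lower genes, and the difference rests on 4 genes and was not tested. At an unadjusted p under 0.05, 8 of the 43 proteasome genes were lower, against 11.3% of all genes, and 1 of the 43 was higher, against 12.0%. Most of the other genes lay slightly below 0. Of 43 log2 fold changes, 33 (76.7%) were below 0, against 45.9% of all genes, and the median was -0.14, against 0.03 for all genes tested. No test over the genes as a group was made.

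**Figure D1:**
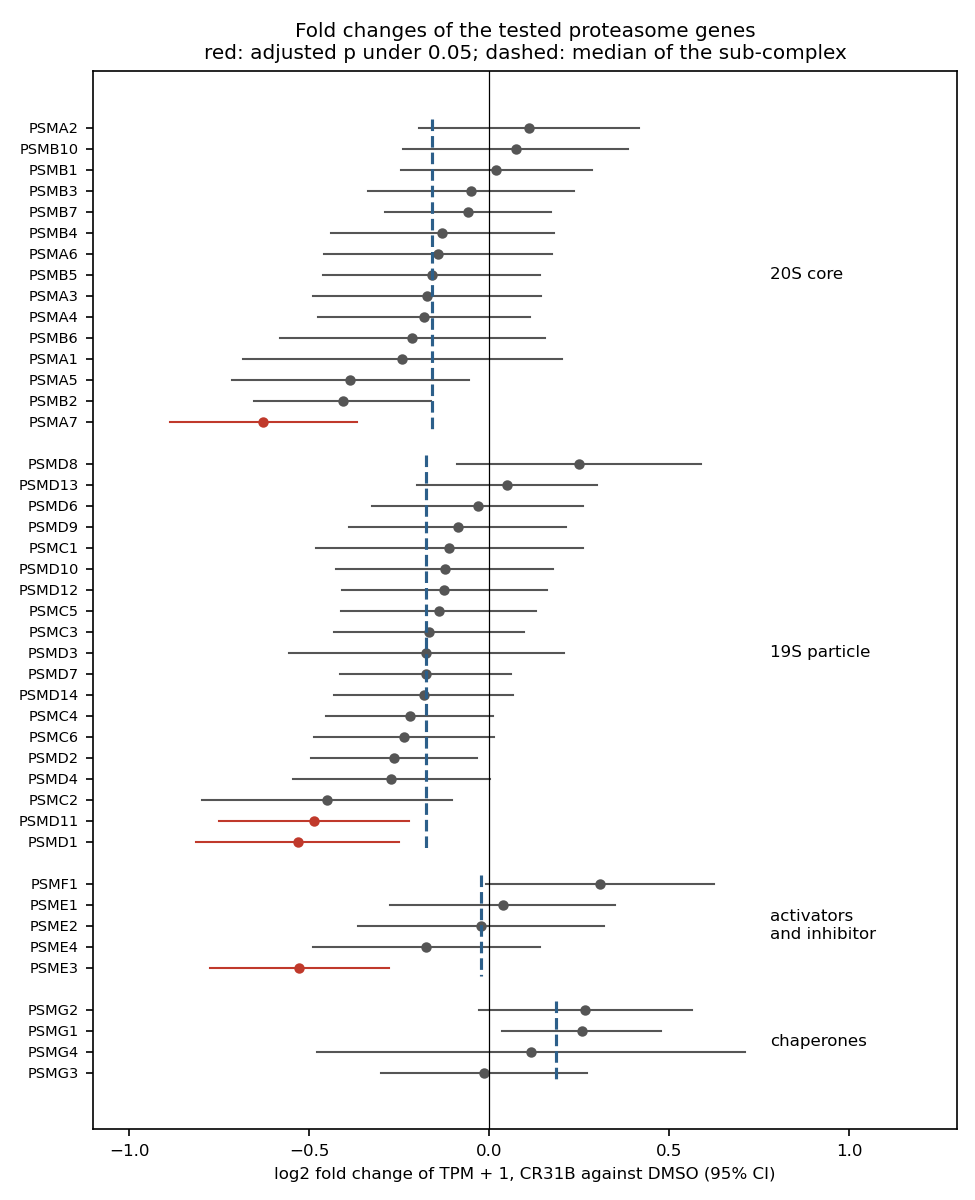
Log2 fold changes of TPM + 1, CR31B against DMSO, for the 43 tested proteasome genes (points) with 95% CIs (lines), ordered within each sub-complex; red marks an adjusted p under 0.05 and dashed lines mark the median of each sub-complex. The medians of the 20S core (-0.16) and the 19S particle (-0.17) lie left of 0 and that of the PSMG chaperones (0.19) lies right of it, while most single intervals include 0.

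PSMA7 (ENSG00000101182.15; GRCh38 chr20:62136735-62143440, minus strand) encodes an alpha ring subunit. It read 233.43, 198.93, 218.22 and 233.90 TPM in DMSO replicates 1 to 4 and 165.94, 130.15, 130.86 and 145.56 TPM in CR31B. All CR31B libraries lay below all DMSO libraries, and the CR31B mean was 64.7% of the DMSO mean. The log2 fold change of -0.63 (SE 0.12, 95% CI -0.89 to -0.37, adjusted limma p of 0.0114) was the lowest of the 43. It passed the threshold in each of 17 alternative fits, with log2 fold changes from -0.70 to -0.57 and adjusted p from 0.00247 to 0.0448. Among these, the fit that summed loci sharing reads left the PSMA7 values unchanged and could not have altered its call. The exact permutation p was 0.0286, the smallest that 70 assignments of 4 and 4 libraries allow, here and for each gene below whose groups did not overlap. Within the 4 pairs of equal replicate number, 16 sign assignments allow no p below 0.125.

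PSME3 (ENSG00000131467.11; chr17:42824385-42843758, plus strand) encodes an activator that opens the core of nuclear proteasomes without ATP or ubiquitin. It read 332.25, 299.24, 321.70 and 331.05 TPM in DMSO and 246.55, 191.51, 229.20 and 225.09 TPM in CR31B. The groups did not overlap, and CR31B replicate 2 was the lowest library. The log2 fold change was -0.53 (SE 0.11, 95% CI -0.78 to -0.28, adjusted limma p of 0.0196). Without CR31B replicate 4, DMSO replicate 1 or DMSO replicate 4 the adjusted p was 0.0536, 0.0579 and 0.0674, with log2 fold changes of -0.53, -0.51 and -0.51. Exons of PSME3 overlap exons of BECN1 on the opposite strand (mean 20.1 TPM), and whether counting used the strand is not given in the sources used here, so reads of the overlap cannot be told apart.

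PSMD1 (ENSG00000173692.14; chr2:231056864-231172827, plus strand) encodes the large scaffold of the 19S base that holds the ubiquitin receptor ADRM1. It read 63.48, 57.73, 52.66 and 66.59 TPM in DMSO and 49.15, 40.82, 35.67 and 39.82 TPM in CR31B. The highest CR31B library lay below the lowest DMSO library, and the log2 fold change was -0.53 (SE 0.13, 95% CI -0.81 to -0.25, adjusted limma p of 0.0318). PSMD11 (ENSG00000108671.11; chr17:32444261-32483318, plus strand) encodes a lid subunit that braces the 19S particle against the core. It read 186.34, 202.08, 198.75 and 241.38 TPM in DMSO and 164.02, 145.93, 147.75 and 131.62 TPM in CR31B. These groups did not overlap either, and the log2 fold change was -0.49 (SE 0.12, 95% CI -0.75 to -0.22, adjusted limma p of 0.0340). Both calls were lost in most fits that left out 1 library, while the fold changes stayed about as large. PSMD1 missed the threshold without CR31B replicate 2, 3 or 4 or DMSO replicate 1, 2 or 4, with adjusted p from 0.0613 to 0.103 and log2 fold changes from -0.55 to -0.47. PSMD11 missed it without CR31B replicate 2, 3 or 4 or any 1 DMSO replicate, with adjusted p from 0.0521 to 0.108 and log2 fold changes from -0.54 to -0.41. With no filter on low values, the adjusted p was 0.0756 for PSMD1 and 0.0728 for PSMD11.

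**Figure D2:**
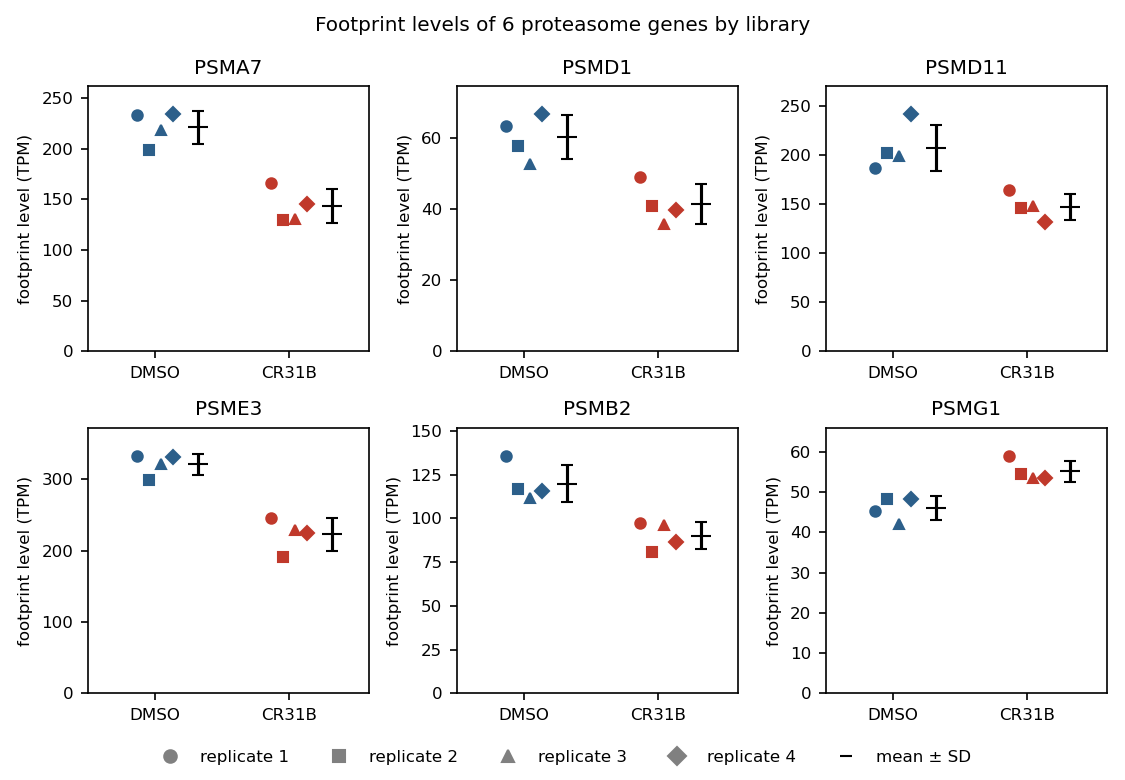
Footprint level in TPM of 6 proteasome genes in each DMSO (blue) and CR31B (red) library, with marker shapes for replicate numbers and the mean ± SD (n = 4) beside each group; all axes start at 0. CR31B libraries lie below all DMSO libraries for PSMA7, PSMD1, PSMD11, PSME3 and PSMB2 and above them for PSMG1; PSMB2 and PSMG1 did not pass the adjusted threshold.

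Rocaglates are known to clamp eIF4A onto runs of purine bases in mRNA leaders, so the leaders of these 4 genes are shown at their longest purine run. The capitals mark the run, with flanking bases in lower case, on the mRNA strand and in GENCODE 29 (GRCh38) transcripts.
PSMA7: gtcgcggcGGAAGGAGcccggccg
PSME3: cggcacAGAGGGAGGGAGcgagcg
PSMD1: ggcggcctGAGGAGGcgactgact
PSMD11: cgcccggcGGAGAGActacaactc
The runs are 8, 12, 7 and 7 bases long. Over the 10090 tested genes with an annotated leader, 52.9% have a run of at least 8 bases, 65.4% one of at least 7 and 17.7% one of at least 12. Of the genes with the highest log2 fold changes, PSMF1, PSMG2, PSMG1 and PSMD8, the leaders hold runs of 7, 12, 8 and 5 bases, and 88.9% of all leaders have a run of at least 5.
PSMF1: gcccagacAGGGAGGcacctgcca
PSMG2: ggcAGGAGGGAAAGGttatgggtc
PSMG1: ggaggtctAAGGAGGAcgatcgct
PSMD8: agttagggcAAAAGccaacttccg
Across the 42 tested proteasome genes with a leader, its median length was 140.5 bases (188 over all genes), its median purine share was 50.3% (51.0%) and its median longest purine run was 7.5 bases (8). With the log2 fold change, Pearson's r and Spearman's rho were 0.16 and 0.04 for leader length, -0.09 and -0.24 for purine share, -0.02 and -0.14 for the longest run and -0.24 and -0.17 for GC content, over 42 genes that share the same libraries and are not independent. The transcript behind each value is the annotated principal one, and the transcripts used by these cells were not measured.

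In the 20S core, 12 of 15 tested genes (80%) had a log2 fold change below 0, against 45.9% of all genes tested. Of the 15, 1 (6.67%) fell and 0 rose, where 4.02% of all genes passed as lower and 7.46% in either direction. At an unadjusted limma p under 0.05, 3 were lower and 0 higher, against 11.3% and 12.0% of all genes. A count of 1 gene does not set the core apart. The standard subunits of the core occur in equal numbers in the particle, but their footprint levels per length ranged from 31.5 ± 7.09 TPM (PSMA1) to 569 ± 39.3 TPM (PSMB3) in DMSO. The coding share of the transcripts differs between these genes, so their levels are not fully alike in measure. PSMB10, which takes the place of PSMB7 in the immunoproteasome, was at 14.8 ± 1.53 TPM. PSMB3 and PSMB4, structural subunits of the beta ring, were the highest, at 538.80 to 621.56 and 477.77 to 580.04 TPM in the DMSO libraries. These ranges overlap each other and lie above that of the next gene, PSMB1 (281.85 to 300.31 TPM). PSMB5 and PSMB6 had overlapping DMSO values, with means of 247 ± 21.7 and 258 ± 34.2 TPM, and all DMSO values of PSMB7 (mean 193 ± 8.27 TPM) lay below them. In the alpha ring, PSMA1 was listed lowest, but summed with a gene that shares its exons (below) it stood at 97.2 ± 14.4 TPM, level with PSMA2. PSMA4 was the highest of the ring, at 224 ± 21.4 TPM. The other alpha genes ranged from 98.3 TPM (PSMA2) to 221 TPM (PSMA7).

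None of the 3 standard catalytic subunits passed the test. PSMB5, the chymotrypsin-like subunit and the main target of bortezomib, read 254.98, 215.22, 256.25 and 262.77 TPM in DMSO and 275.18, 187.79, 210.24 and 217.72 TPM in CR31B. The CR31B library with the highest value, replicate 1, lay above all DMSO libraries, and the log2 fold change was -0.16 (SE 0.14, 95% CI -0.46 to 0.14). PSMB6, the caspase-like subunit, read 306.94, 250.18, 245.95 and 227.77 TPM in DMSO and 300.30, 196.21, 220.95 and 182.09 TPM in CR31B. It was lower in 4 of 4 pairs of the same replicate number, with overlapping groups and a log2 change of -0.21 (SE 0.17, 95% CI -0.58 to 0.15). PSMB7, the trypsin-like subunit, read 183.02, 192.64, 192.03 and 203.24 TPM in DMSO and 205.69, 182.69, 183.90 and 168.83 TPM in CR31B, with a log2 change of -0.06 (SE 0.10, 95% CI -0.29 to 0.17). These intervals bound a fall of the catalytic genes without showing that there was none.

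PSMB2, a non-catalytic beta subunit, lay just outside the threshold. It read 135.36, 116.52, 111.82 and 115.46 TPM in DMSO and 97.07, 81.03, 96.10 and 86.31 TPM in CR31B. The groups did not overlap, and the log2 fold change was -0.41 (SE 0.11, adjusted limma p of 0.0521). With the replicate number as a block the adjusted p was 0.0289, and it also passed after rescaling over protein-coding genes (0.0274), quantile normalization (0.0245) and a minimum mean of 10 TPM (0.0429). PSMA5, an alpha subunit, read 198.89, 185.35, 135.38 and 198.62 TPM in DMSO and 118.52, 149.29, 128.03 and 149.24 TPM in CR31B. DMSO replicate 3 lay among the CR31B values: the log2 fold change was -0.39 (adjusted limma p of 0.147) with it and -0.51 (0.0398) without it. PSMA2 had the highest log2 fold change of the core, 0.11 (SE 0.14), with 103.04, 96.13, 82.64 and 111.52 TPM in DMSO and 126.33, 112.32, 95.56 and 91.77 TPM in CR31B. The remaining core genes had log2 fold changes from -0.24 (PSMA1) to 0.02 (PSMB1).

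In the 19S particle, 17 of 19 tested genes (89.5%) had a log2 fold change below 0, against 45.9% of all genes tested. Of the 19, 2 (10.5%) fell and 0 rose, where 4.02% of all genes passed as lower and 7.46% in either direction. At an unadjusted limma p under 0.05, 4 were lower and 0 higher, against 11.3% and 12.0% of all genes. A count of 2 genes does not set the particle apart. All 6 ATPase genes, PSMC1 to PSMC6, lay below 0, from -0.45 (PSMC2) to -0.11 (PSMC1), and none passed the threshold. PSMC2 read 80.72, 83.32, 74.51 and 85.35 TPM in DMSO and 66.63, 75.08, 44.20 and 54.36 TPM in CR31B, where replicate 2 reached into the DMSO range (adjusted limma p of 0.115). The groups of PSMC4 narrowly did not overlap (95.25 to 105.83 TPM in DMSO, 76.75 to 95.22 TPM in CR31B, log2 fold change -0.22, adjusted limma p of 0.237). Those of PSMD2, the docking subunit for ubiquitin shuttles, did not overlap either (83.88 to 101.62 against 69.51 to 79.17 TPM, log2 fold change -0.26, adjusted limma p of 0.156). In all, the groups lay apart in the lower direction for 7 of the 43 genes, against 8.14% of all genes tested, and in the higher direction for 1, against 8.07%.

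Among the genes that handle the ubiquitin tag, PSMD4, a receptor, read 292.32 to 362.03 TPM in DMSO and 252.58 to 322.80 TPM in CR31B. Its log2 fold change was -0.27 (SE 0.12, adjusted limma p of 0.215), and CR31B replicate 1 alone lay within the DMSO range. PSMD14, the metalloprotease that removes the tag, read 69.31 to 78.80 TPM in DMSO and 59.32 to 76.51 TPM in CR31B, with a log2 change of -0.18 (SE 0.11, adjusted limma p of 0.367). PSMD8, a lid subunit, had the highest log2 fold change of the particle. It read 61.39, 43.60, 52.61 and 43.38 TPM in DMSO and 74.02, 50.38, 58.10 and 57.19 TPM in CR31B. All 4 pairs were higher in CR31B although the groups overlapped (log2 fold change 0.25, SE 0.15, adjusted limma p of 0.363). PSMD9 and PSMD10, which carry 19S symbols and are known as chaperones of the base, had log2 fold changes of -0.09 and -0.12.

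For PSMC1, footprints were also listed under processed pseudogenes, and how reads that match several loci were assigned is not given in the sources used here. The table lists 44 pseudogenes named after a proteasome gene, of 17 parents, and 3 of them reached a mean of 1 TPM: PSMC1P5, PSMC1P1 and PSMC2P1. A further 13 were listed at 0 in all libraries. PSMC1 itself read 154.29, 205.62, 176.59 and 190.10 TPM in DMSO and 119.43, 179.88, 198.43 and 183.47 TPM in CR31B, with overlapping groups and a log2 fold change of -0.11. PSMC1P5 read 184.6, 192.2, 246.9 and 181.2 TPM in DMSO and 187.5, 140.5, 164.4 and 132.1 TPM in CR31B, and PSMC1P1 ranged from 5.15 to 85.3 TPM. The sum over the 3 loci varied less between libraries than PSMC1 alone: 424.18, 453.15, 449.76 and 449.09 TPM in DMSO against 382.17, 365.73, 367.99 and 342.38 TPM in CR31B. These sums did not overlap, with a log2 change of -0.28 (SE 0.099, adjusted limma p of 0.116), a value added after the data were seen. PSMA1 likewise shares exons on the same strand with a gene without a symbol (ENSG00000256206, mean 66.1 TPM), and the log2 fold change was -0.24 for PSMA1 alone and -0.07 for the sum.

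**Figure D3:**
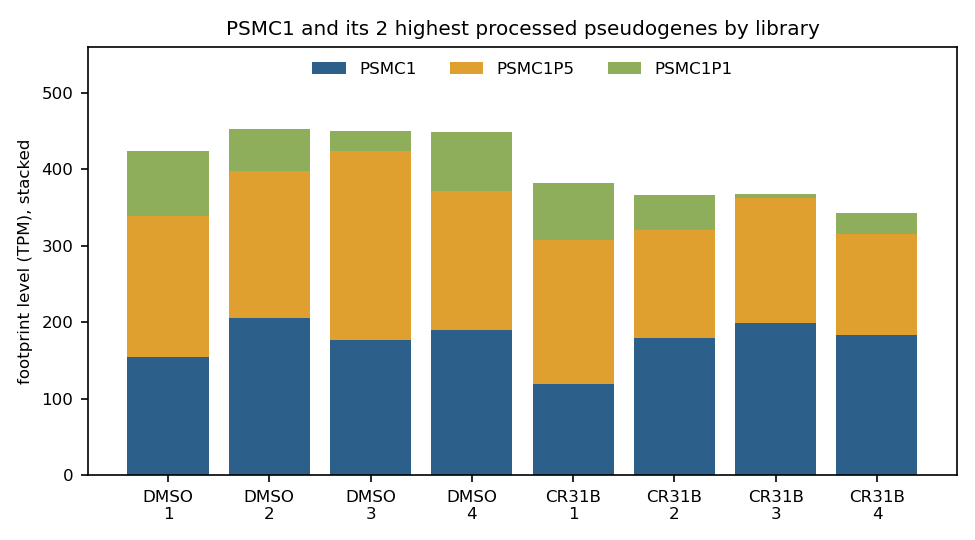
Stacked footprint levels in TPM of PSMC1 (blue) and its processed pseudogenes PSMC1P5 (orange) and PSMC1P1 (green) in each library. How the total is divided among the 3 loci differs between libraries of 1 group, while the totals of the CR31B libraries (342.38 to 382.17 TPM) lie below those of the DMSO libraries (424.18 to 453.15 TPM).

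Of the 5 genes for activators and the inhibitor, PSME3 alone passed the threshold or an unadjusted limma p under 0.05. Over all genes tested, 7.46% passed the threshold in either direction. PSME1 and PSME2, which form the interferon-inducible cap together, had nearly equal levels. PSME1 read 32.57, 33.81, 31.58 and 27.34 TPM in DMSO and 41.11, 30.31, 31.60 and 26.85 TPM in CR31B (log2 fold change 0.04, SE 0.14). PSME2 read 36.26, 27.85, 43.61 and 29.97 TPM in DMSO and 34.37, 28.06, 34.61 and 37.14 TPM in CR31B (log2 fold change -0.02, SE 0.15). The sign of both small values depended on single libraries and on the scaling. In DMSO the nuclear activator PSME3 was thus at 321 ± 15.3 TPM, far above PSME1 (31.3 ± 2.81) and PSME2 (34.4 ± 7.09). PSME4, the activator known for histone turnover, read 10.64, 11.79, 9.55 and 11.79 TPM in DMSO and 11.46, 10.57, 8.86 and 7.71 TPM in CR31B (log2 fold change -0.17, SE 0.14, 95% CI -0.49 to 0.14). PSMF1 had the highest log2 fold change of the 43. It read 94.14, 77.87, 67.45 and 76.57 TPM in DMSO and 115.72, 80.67, 103.62 and 92.71 TPM in CR31B. All 4 pairs were higher in CR31B, yet DMSO replicate 1 exceeded 2 CR31B libraries, and the log2 fold change of 0.31 (SE 0.14, 95% CI -0.01 to 0.62) had a adjusted limma p of 0.227.

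The assembly chaperones were low: PSMG3 and PSMG4 were the lowest of the 43 tested genes. PSMG1 and PSMG2 act as a pair at the start of alpha ring assembly. PSMG1 (ENSG00000183527.12; chr21:39174769-39183851, minus strand) read 45.35, 48.33, 42.08 and 48.40 TPM in DMSO and 58.90, 54.50, 53.64 and 53.64 TPM in CR31B. All CR31B libraries lay above all DMSO libraries, the reverse of the 7 genes above. The log2 fold change was 0.26 (SE 0.10, 95% CI 0.04 to 0.48, exact permutation p of 0.0286), and the adjusted limma p of 0.149 missed the threshold. PSMG2 read 29.06, 24.16, 24.43 and 25.78 TPM in DMSO and 37.45, 34.14, 26.44 and 28.10 TPM in CR31B. It was higher in 4 of 4 pairs with overlapping groups (log2 fold change 0.27, SE 0.13, adjusted limma p of 0.263). PSMG3 and PSMG4 form the second pair. PSMG3 read 5.26, 6.34, 7.11 and 5.94 TPM in DMSO and 6.07, 5.67, 5.65 and 6.92 TPM in CR31B (log2 fold change -0.01, SE 0.13). PSMG4 read 2.89, 8.20, 6.44 and 6.49 TPM in DMSO and 6.18, 6.28, 8.88 and 4.33 TPM in CR31B, a wide spread within both groups (log2 fold change 0.12, SE 0.27). Exons of PSMG4 overlap those of TUBB2B on the opposite strand, a tubulin gene with a mean of 154 TPM. Those of PSMG2 overlap CEP76 (mean 12.8 TPM) and SPIRE1 (6.9 TPM) on the opposite strand. Such overlaps also occur for further genes named here, among them PSMA2 with MRPL32 (51.1 TPM).

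Summed over their genes, the sub-complexes did not all lie on the same side of DMSO. The 20S core took 0.349, 0.322, 0.313 and 0.334% of all TPM in DMSO and 0.354, 0.284, 0.278 and 0.273% in CR31B, where replicate 1 lay above all DMSO libraries. As a share of protein-coding TPM, which leaves other RNA classes out of the sum, it took 0.593 ± 0.00805% in DMSO and 0.546 ± 0.0237% in CR31B, without overlap. The 19S particle took 0.401 ± 0.00809% of protein-coding TPM in DMSO and 0.357 ± 0.00833% in CR31B, also without overlap. As a share of all TPM its groups did overlap, with 0.2122% in CR31B replicate 1 and 0.2115% in DMSO replicate 3. The activators and the inhibitor stood at 0.0859 ± 0.00389% and 0.0730 ± 0.00515% of protein-coding TPM in DMSO and CR31B. Their summed level went from 476.8 to 396.9 TPM while that of PSME3 alone went from 321 to 223 TPM, so the sum follows PSME3. The 4 chaperones took 0.0152 ± 0.000751% of protein-coding TPM in DMSO and 0.0183 ± 0.000776% in CR31B, higher in 4 of 4 pairs and without overlap. From DMSO to CR31B, PSMG1 went from 46.0 to 55.2 TPM and PSMG2 from 25.9 to 31.5 TPM. PSMG3 went from 6.16 to 6.08 TPM and PSMG4 from 6.0 to 6.4 TPM. The chaperone sum thus follows PSMG1 and PSMG2, and none of the 4 passed the threshold. Over all 48 genes the share of protein-coding TPM was 1.095 ± 0.0134% in DMSO and 0.994 ± 0.0179% in CR31B. Their share of all TPM was 0.6225% in CR31B replicate 1 and 0.5804% in DMSO replicate 3, so on that scale the groups overlapped.

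**Figure D4:**
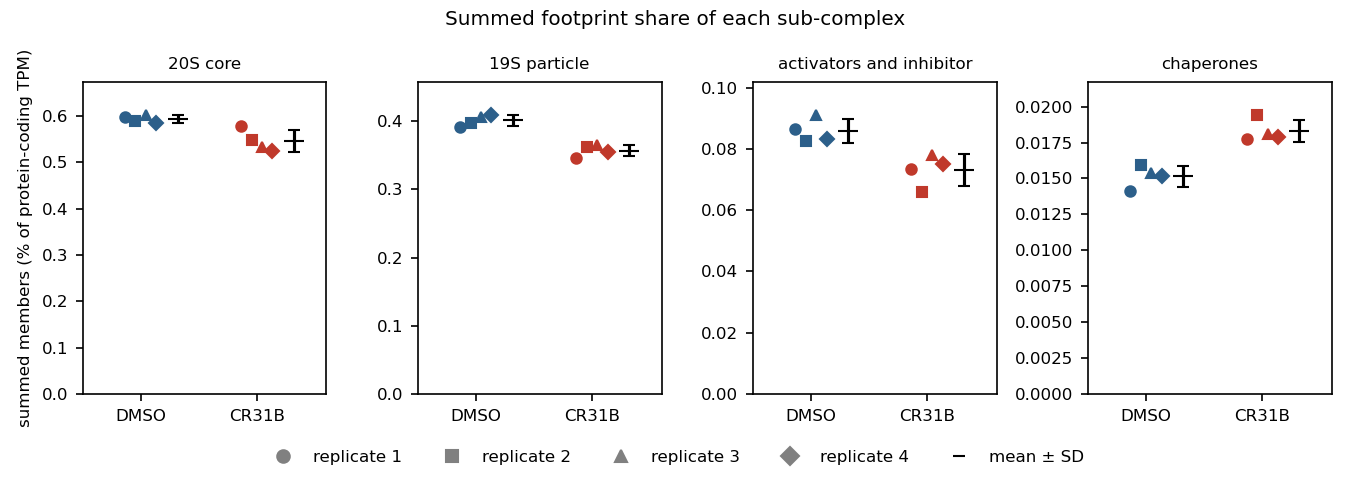
Summed footprint level of each sub-complex as percent of protein-coding TPM in each DMSO (blue) and CR31B (red) library, with the mean ± SD (n = 4); axes start at 0 and differ between panels. CR31B libraries lie below DMSO libraries for the 20S core, the 19S particle and the activators with the inhibitor, and above them for the PSMG chaperones. As a share of all TPM, the groups of the 20S core and of the 19S particle overlap.

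The medians of the log2 fold changes order the sub-complexes differently from the sums. They were -0.16 in the 20S core, -0.17 in the 19S particle, -0.02 among the activators and the inhibitor, and 0.19 among the chaperones. The 20S median was -0.26 without CR31B replicate 1, -0.08 without CR31B replicate 2 and -0.09 after quantile normalization. The 19S median stayed between -0.21 and -0.14 in all alternatives. That of the activators and the inhibitor changed sign with the scaling (0.01 after rescaling over protein-coding genes) and without CR31B replicate 2 (0.06), DMSO replicate 1 (0.01) or DMSO replicate 3 (0.04). The chaperone median was 0.09 without DMSO replicate 1. As a description beside them, the 8 genes of TRiC, a cytosolic chaperonin that is also a large ring complex, had a median of -0.01, with 4 below and 4 above 0 and 0 past either an adjusted or an unadjusted limma p under 0.05. The 84 tested cytosolic ribosomal proteins had a median of -0.13, with 61 below 0, 2 lower and 3 higher at an adjusted p under 0.05. Over all genes tested, 45.9% were below 0 and 7.46% passed in either direction.

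Of 12 further proteins that bind or assemble the proteasome, 1 rose and 0 fell (3 higher and 4 lower at an unadjusted limma p under 0.05), where 7.46% of all genes tested passed the adjusted threshold and 12.0% and 11.3% were higher and lower at the unadjusted one. AKIRIN2, which carries proteasomes into the nucleus, read 23.74, 22.61, 24.59 and 23.43 TPM in DMSO and 31.42, 34.75, 43.46 and 32.69 TPM in CR31B. The groups did not overlap, and the log2 fold change was 0.56 (SE 0.12, 95% CI 0.29 to 0.83, adjusted limma p of 0.0209). Without DMSO replicate 1, 2 or 4 the adjusted p was 0.0546, 0.0634 and 0.0651. ADRM1, the ubiquitin receptor that PSMD1 holds, read 66.27 to 85.70 TPM in DMSO and 45.41 to 58.85 TPM in CR31B, without overlap. Its log2 fold change was -0.46 (SE 0.13), with a adjusted limma p of 0.0505 and of 0.0250 with the replicate block; without CR31B replicate 1 it was 0.0498. POMP, the chaperone of the beta ring, read 75.46 to 84.30 TPM in DMSO and 56.50 to 70.17 TPM in CR31B (log2 fold change -0.29, adjusted limma p of 0.132). The other values ran from -0.36 (PAAF1) to 0.44 (PITHD1); PITHD1 passed without CR31B replicate 2 (adjusted p of 0.0288).

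The transcription factor NFE2L1 is known to raise the expression of proteasome genes when the proteasome is impaired, after NGLY1 and DDI2 have processed it. Its footprints rose relative to those of other genes. NFE2L1 read 138.4, 199.4, 158.9 and 150.7 TPM in DMSO and 267.1, 250.6, 313.6 and 263.9 TPM in CR31B. The groups did not overlap, and the log2 fold change was 0.76 (SE 0.14, 95% CI 0.46 to 1.06, adjusted limma p of 0.00900), past the threshold in each of 17 alternatives. As for PSMA7, the fit that summed loci sharing reads left the values of this gene unchanged. Of the 6 tested genes of this list, NFE2L1 was the only one called, where 7.46% of all genes tested were called in either direction. NFE2L2, a relative that answers oxidative stress, read 24.10 to 26.04 TPM in DMSO and 27.14 to 44.06 TPM in CR31B, without overlap (log2 fold change 0.41, adjusted limma p of 0.115, and 0.0483 without CR31B replicate 1). DDI2 (-0.08), NGLY1 (0.10) and the partner MAFG (-0.15) had small log2 fold changes with overlapping groups. MAFF, at 1.49 ± 0.35 TPM in DMSO against 0.66 ± 0.46 TPM with CR31B, had a log2 change of -0.61 with a adjusted limma p of 0.116, and of 0.0460 with the replicate block. MAFK did not reach 1 TPM.

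NFE2L1 and its relatives bind antioxidant response elements, so the promoters of the proteasome genes were searched for TGACNNNGC and, as a common variant, TGAGNNNGC, on both strands. RefSeq promoters (GRCh38.p14, 250 bases before to 50 after the start) matched 42 of the 48 genes, 37 of them tested. TGACNNNGC occurred in 11 of the 37 promoters (29.7%), against 15.3% of 8471 tested genes. Either form occurred in 18 (48.6%), against 33.5%. CCAAT, the site of a general promoter factor, occurred in 17 (45.9%), against 38.1%. Windows around TGACNNNGC are shown for PSMB3 of the core, PSMD3 and PSMD12 of the 19S particle and the chaperone PSMG1, on the gene's own strand and with the match in capitals.
PSMB3: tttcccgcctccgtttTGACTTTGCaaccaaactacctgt
PSMD3: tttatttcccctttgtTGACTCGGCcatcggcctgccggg
PSMD12: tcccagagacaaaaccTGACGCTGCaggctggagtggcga
PSMG1: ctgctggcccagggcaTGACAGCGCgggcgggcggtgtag
The windows lie at chr17:38752621-38752660, chr17:39980754-39980793, chr17:67366719-67366758 and chr21:39183611-39183650, with PSMB3 and PSMD3 on the plus strand and PSMD12 and PSMG1 on the minus strand. None of these 4 genes passed the threshold, with log2 fold changes of -0.05 (PSMB3), -0.17 (PSMD3), -0.12 (PSMD12) and 0.26 (PSMG1). Of PSMD1, PSMD11 and PSME3, PSMD1 alone held a match to either form, after its annotated start; no promoter was matched for PSMA7. A match describes letters in the window and is not a measured binding site.

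Of 11 genes for ubiquitin, its activating enzymes, the shuttles that bring substrates and the unfoldase VCP with its cofactors, 2 fell and 0 rose (5 lower and 0 higher at an unadjusted limma p under 0.05), where 4.02% of all genes tested passed as lower and 11.3% were lower at the unadjusted threshold. They were UFD1 and NPLOC4, which act together as a cofactor of VCP in extracting ubiquitinated proteins. NPLOC4 read 42.50, 32.38, 48.69 and 48.03 TPM in DMSO and 22.02, 27.70, 30.32 and 25.30 TPM in CR31B, without overlap (log2 fold change -0.68, SE 0.15, 95% CI -1.02 to -0.33, adjusted limma p of 0.0265). UFD1 read 94.43, 84.48, 73.84 and 103.4 TPM in DMSO and 69.13, 64.00, 60.58 and 57.11 TPM in CR31B, without overlap (log2 fold change -0.49, SE 0.13, 95% CI -0.77 to -0.21, adjusted limma p of 0.0418). NPLOC4 missed the threshold without CR31B replicate 1 or 4 or DMSO replicate 1, 3 or 4 (adjusted p from 0.0565 to 0.0876). UFD1 missed it without CR31B replicate 2, 3 or 4 or DMSO replicate 1, 2 or 4 (0.0716 to 0.128) and with eBayes without trend (0.0578). With no filter on low values neither passed (0.0844 for NPLOC4 and 0.0948 for UFD1). VCP itself read 169.4 to 239.3 TPM in DMSO and 139.0 to 214.3 TPM in CR31B, with a log2 change of -0.38 (SE 0.16, adjusted limma p of 0.190). The shuttle UBQLN1 had a log2 change of -0.58 (adjusted limma p of 0.0732, and 0.0241 with the replicate block) and UBQLN2 one of -0.48 (0.0609, and 0.0487 with the block), both without overlap. The ubiquitin genes UBB and RPS27A had log2 fold changes of -0.27 and 0.07 and did not pass.

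**Figure D5:**
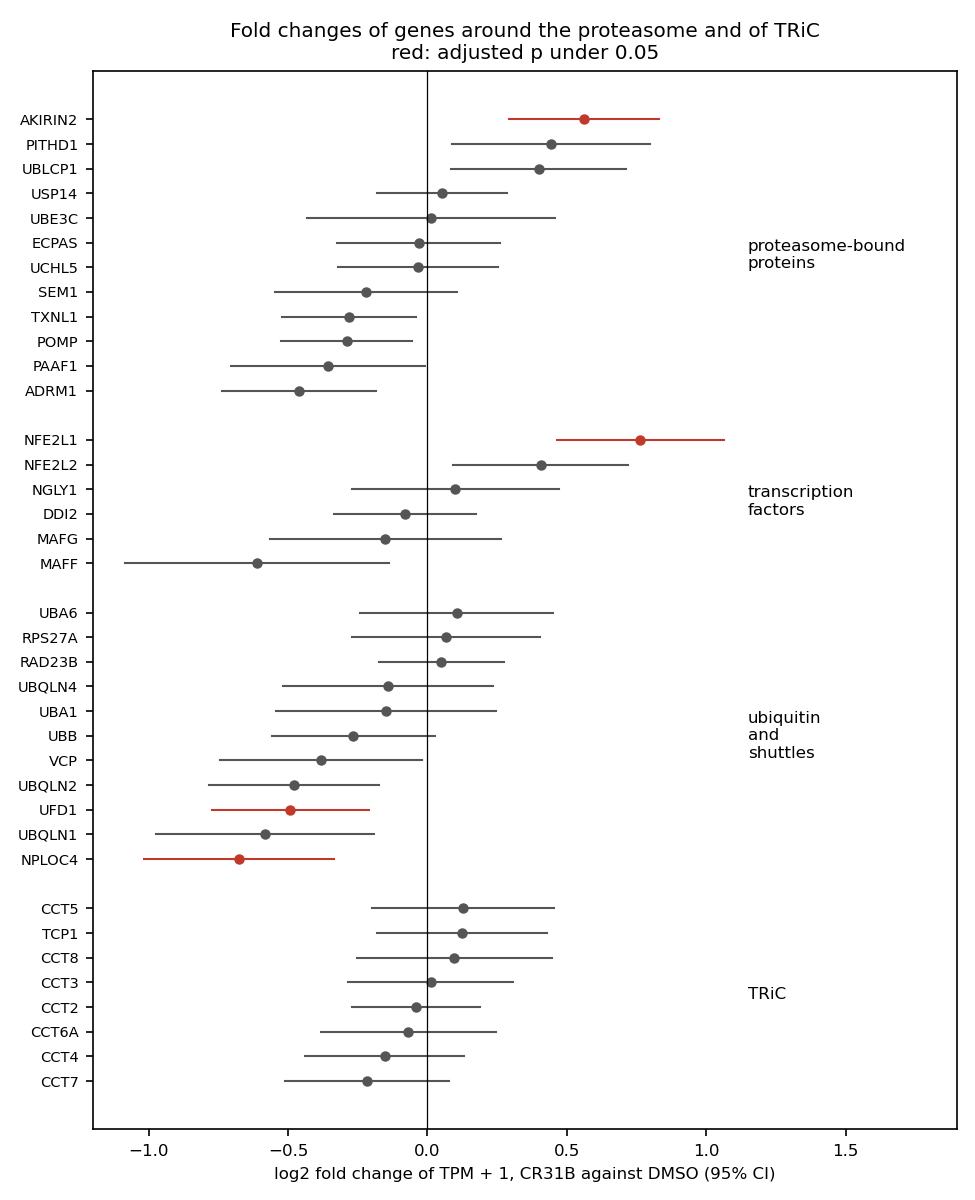
Log2 fold changes of TPM + 1, CR31B against DMSO, with 95% CIs for proteins bound to the proteasome, transcription factors of its genes with their processing enzymes, the ubiquitin and shuttle genes, and TRiC for comparison; red marks an adjusted p under 0.05. AKIRIN2 (0.56) and NFE2L1 (0.76) lie to the right and UFD1 (-0.49) and NPLOC4 (-0.68) to the left, while all 8 TRiC intervals include 0.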

How the data were processed

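Ribosome-protected fragments of 28 to 30 nt from 8 IMR32 libraries (4 CR31B, 4 DMSO) were analysed from 1 table of gene TPM that the authors deposited. The submitters' processing notes name cutadapt 3.2, Bowtie2 2.3.4.1, STAR 2.7.1a, RSEM 1.2.28, DESeq2 1.32.0 and GRCh38, without their roles; annotation, strand setting and treatment of multiply mapping reads are not given in the sources used here. Columns were matched to libraries by description. The 11778 genes whose mean reached 1 TPM were fitted with limma 3.58.1 (R 4.3.3; lmFit, eBayes with trend) on log2(TPM + 1), treatment only, with Benjamini-Hochberg adjustment over all of them at 0.05. Fold changes on this scale understate those of low genes, and TPM sums tie all genes together. The series describes its replicates as biological. Its protocol names more than 1 sequencing run without saying which library was in which, so a run effect could not be computed. The fit was checked on simulated data. Python 3.11.15 did the rest.

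The genes and lists were chosen with earlier results of these data known. A few genes of the ubiquitin and ribosomal protein lists are not reported here, and those counts leave them out; the other lists are whole. Named are the genes that passed, the largest and smallest fold change of each sub-complex, the catalytic, immunoproteasome, tissue-restricted, PSME, PSMF and PSMG genes, and from each list those that passed; others named were chosen after their values were seen. GENCODE 29 gave gene types, gene coordinates, exon overlaps and leaders. Replicate numbers were taken as pairs from the data: libraries of numbers 1, 2 and 3 deviated together (r of 0.333, 0.324 and 0.301, against -0.206 to 0.134 for other numbers). Number 4, with an r of 0.105, lay within the range of other numbers, so the values do not bear out that pair. Deviations were taken from the group means, which ties these correlations to each other. The share of all genes that move the same way in every pair was not computed. Alternatives were other pseudocounts (0.1 and 5), filters (none; at least 10 TPM), scalings, a replicate block, eBayes without trend, leaving out each library and, added after the data were seen, summing loci that share reads.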

Additional observations from a re-analysis of the deposited data

Results flagged for a closer look

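In 102 groups of 4 libraries examined for a single library far from the other 3, 9 had one, where chance alone gives about 5.1 if values are normal. The groups share the same libraries, and the 20S core sum holds PSMB1 and PSMA1. No excess over chance was tested for these 9 cases, which are not independent. Of these, 5 concern CR31B replicate 1, each time on the high side: PSMB1 at 357.6 TPM (others 265.6 to 279.1), PSMA1 at 37.62 TPM (22.36 to 23.74), PSMD4 at 322.8 TPM (252.6 to 258.9), PSMG1 at 58.9 TPM (53.64 to 54.5) and the whole 20S core at 0.3544% of all TPM (0.2727 to 0.2839%). That library also had the highest protein-coding share of TPM, 61.3%. In DMSO replicate 3, PSMC6 was low at 118.9 TPM (142.2 to 142.4) and PSMA3 at 152.2 TPM (200.6 to 207.8). PSMB5 was low in DMSO replicate 2, at 215.2 TPM (255 to 262.8), and PSMD13 in CR31B replicate 2, at 29.76 TPM (36.63 to 37.53). None of the 4 genes that passed the threshold is among them.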

How the results depend on the processing

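TPM give no depth, and 4 libraries a group limit which small changes can pass. Genes called over all tested numbered 879, 442 with no filter, 1453 with the replicate block and 404 to 785 without 1 library. Proteasome genes called numbered 4, then 2 with no filter (PSMA7 and PSME3), 5 with the replicate block (PSMB2 added) and 1 to 4 without 1 library; the block removed no call among the 4. The chaperone median was 0.26 at a mean of at least 10 TPM, a filter that leaves only PSMG1 and PSMG2 in it. Without 1 library the median of the 4 chaperones ran from 0.087 to 0.27. Bound proteins called numbered 1, with 3 after rescaling over protein-coding genes, 2 with the block and 0 to 2 without 1 library; transcription factors 1, with 2 under the block and 1 to 2; ubiquitin and shuttle genes 2, with 4 after rescaling, 4 under the block and 0 to 1. Signs of small values turned: PSMB7 0.013 and PSME1 -0.0015 after quantile normalization, PSME2 0.012 and PSMG3 0.016 after rescaling. Without 1 library, PSMB10 ran from -0.0046 to 0.18, PSMC1 from -0.19 to 0.050, PSME1 from -0.079 to 0.12, PSME2 from -0.11 to 0.096, PSMG3 from -0.077 to 0.047 and PSMG4 from -0.14 to 0.27. The cause was not tested. The summed shares of the 4 sub-complexes, relative to DMSO, moved by less than the larger SD of the groups in every alternative run. Leaving out 1 of 4 libraries cannot move a mean by a full SD, so those runs could not have shown otherwise. The 20S core moved most, from 90.2% to 84.4% of DMSO without CR31B replicate 1.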
